A study of Mus musculus with 6 samples.

Results

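The myogenic regulatory factors are 4 related basic helix-loop-helix transcription factors, encoded by Myod1, Myog, Myf5 and Myf6, that direct the formation of skeletal muscle. Their loci were followed here through the H3K27ac peaks of C2C12 cells, a mouse myoblast line that fuses into myotubes in culture. Members were all peaks overlapping 3 fixed windows of the mouse build mm9. The Myod1 window was chr7:53600000-53650000, the Myog window chr1:136165000-136195000, and a single window, chr10:106900000-107000000, held Myf5 and Myf6. The windows held 31 of 57101 peaks in proliferation, 51 of 89717 peaks at 36 h of differentiation and 60 of 97144 peaks at 72 h of differentiation. Merging the overlapping peaks of the 3 lists gave 52 regions in the windows, of 112926 genome-wide.

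The series concerns TAp63, a p53-family factor, in myogenesis, and all samples were C2C12 myoblasts with no genetic change named in the labels. Each of the 3 stages (proliferation, 36 h and 72 h of differentiation) was represented by 1 H3K27ac library, made from the pooled DNA of 4 ChIP assays, and by 1 input library whose file was not used here. With 1 library per stage there was no replicate check, so no test was made and every difference given is between these libraries. The whole cultures were assayed, so more cells carrying the mark and more mark per cell cannot be told apart. No annotation of mm9 was used here, so the gene starts were not placed on the peaks, and markers of other cell types were not examined.

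Myf5 and Myod1 are known as the determination factors of the lineage, present in myoblasts before differentiation. Myog is switched on as myoblasts leave the cell cycle and drives terminal differentiation, whereas Myf6 acts in early specification in the embryo and again in mature fibres. The factors bind E-boxes (CANNTG) with E-protein partners and act on each other's loci. H3K27ac marks active promoters and enhancers. Myod1 is known for a distal enhancer and a nearer regulatory region upstream of its promoter, and Myf5 and Myf6 lie side by side and are controlled by many enhancers spread over a long interval.

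Promoter sequences are shown for the members whose entry was found in the RefSeq promoter table, 2 of 4, because these factors bind E-boxes and these are the windows with the largest and the smallest ratio of length under peaks between the later stages and proliferation. Each runs 5′ to 3′ over the 250 bases before the gene start in build GRCm38.p6, Myog at chr1:134289754-134290003 on the plus strand and Myf5 at chr10:107486135-107486384 on the minus strand, with every CANNTG in capitals.
Myog: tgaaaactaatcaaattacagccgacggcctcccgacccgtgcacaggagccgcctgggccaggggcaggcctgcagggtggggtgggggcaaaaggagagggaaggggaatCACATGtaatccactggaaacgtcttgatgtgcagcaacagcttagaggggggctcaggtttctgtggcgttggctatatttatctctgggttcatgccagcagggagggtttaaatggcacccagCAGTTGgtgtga
Myf5: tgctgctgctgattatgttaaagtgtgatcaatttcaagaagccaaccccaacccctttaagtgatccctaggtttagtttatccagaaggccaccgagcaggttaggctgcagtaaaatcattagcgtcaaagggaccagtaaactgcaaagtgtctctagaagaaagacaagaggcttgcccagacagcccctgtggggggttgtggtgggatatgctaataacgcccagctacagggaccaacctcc

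The Myog sequence held 2 matches, CACATG beginning 138 bases and CAGTTG beginning 12 bases before the start, and the Myf5 sequence held none. CANNTG reads the same on both strands, and 66.2% of 32851 sequences of this length in the table held at least 1 match. These GRCm38 positions cannot be compared with the mm9 peak positions, so no peak was assigned to either sequence. In the gene order of that assembly, Myog is flanked by Myoparr, a long non-coding RNA, and Ppfia4, Myod1 by Gm45923 and Kcnc1, and the pair Myf5 and Myf6 by Lin7a and Gm36177. No peak was assigned to any of these genes.

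H3K27ac peaks held several times more of the Myod1 and Myog windows in the differentiating libraries than in the proliferating one, and about as much of the Myf5 and Myf6 window. At Myod1, 13 peaks spanned 6.80 kb in proliferation, 21 peaks spanned 24.5 kb at 36 h and 27 peaks spanned 29.8 kb at 72 h. At Myog, 6 peaks spanned 2.24 kb in proliferation, 13 peaks spanned 20.6 kb at 36 h and 16 peaks spanned 19.1 kb at 72 h. At Myf5 and Myf6, 12 peaks spanned 10.9 kb in proliferation, 17 peaks spanned 12.9 kb at 36 h and 17 peaks spanned 13.2 kb at 72 h.

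As a share of the window, which allows for their unequal sizes, peaks held 13.6% of the Myod1 window in proliferation, 49.0% at 36 h and 59.5% at 72 h. For Myog the shares were 7.47%, 68.7% and 63.6% in the same order of stages, and for Myf5 and Myf6 they were 10.9%, 12.9% and 13.2%. Of the 3 windows, Myog therefore had the smallest share under peaks in proliferation and the largest at each later stage.

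**Figure D1:**
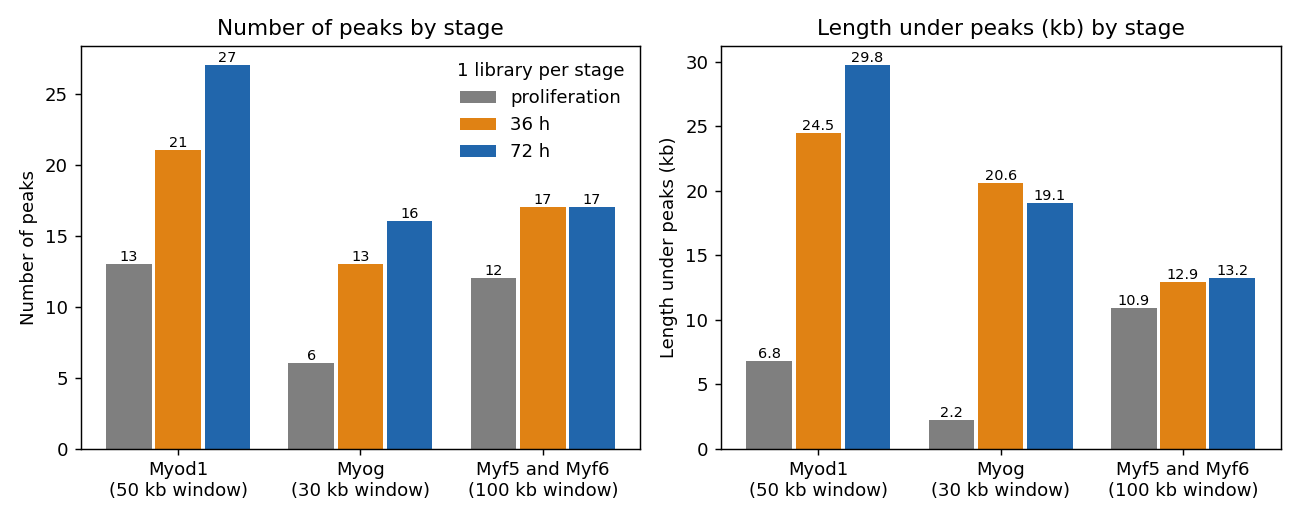
Number of H3K27ac peaks (left) and length under peaks in kb (right) in the 3 windows, with 1 bar per stage and 1 library per stage, so without error bars. The length at Myod1 and Myog is several times higher at 36 h and 72 h than in proliferation, while at Myf5 and Myf6 it runs from 10.9 to 13.2 kb.

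Relative to proliferation, the length under peaks at Myog was 9.21-fold at 36 h and 8.51-fold at 72 h. At Myod1 it was 3.60-fold at 36 h and 4.37-fold at 72 h, and at Myf5 and Myf6 1.18-fold and 1.21-fold. Counting only peaks whose −log10 q reached 5, the Myog ratios were 16.8 at 36 h and 14.6 at 72 h. The proliferation length at Myog was then only 1220 bp in 2 peaks, and the later lengths were not higher than before. With that q the ratios were 4.59 and 4.91 at Myod1, and 1.11 and 1.13 at Myf5 and Myf6. Summed over each whole list the ratio was 1.79 for 36 h and 2.03 for 72 h. The length was thus at least 2 times the proliferation value in 2 of 3 windows at each later stage. For tiles of the genome of the same size with at least 1 kb under peaks in 1 of the lists compared, the share past that ratio at 36 h was 43.6% for 50 kb tiles (the Myod1 size), 44.1% for 30 kb tiles (the Myog size) and 42.8% for 100 kb tiles (the Myf5 and Myf6 size). At 72 h the shares were 50.7%, 50.3% and 50.4%. A ratio past 2 was therefore common in the genome. Among the same tiles, the Myog ratio was reached by 18.7% of 30 kb tiles at 36 h and 23.6% at 72 h. The Myod1 ratio was reached by 26.2% and 28.5% of 50 kb tiles, and the Myf5 and Myf6 ratio by 73.1% and 77.7% of 100 kb tiles.

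Many of those tiles had little or no proliferation peak, which makes a high ratio easy to reach. Among tiles with at least 1 kb under peaks in proliferation, a restriction chosen after the data had been seen, the shares past 2 times were 24.1%, 20.0% and 28.6% at 36 h and 28.1%, 22.9% and 33.8% at 72 h, for 50, 30 and 100 kb. The Myog ratio was reached by 0.182% of such 30 kb tiles at 36 h and 0.363% at 72 h. The Myod1 ratio was reached by 7.05% of such 50 kb tiles at 36 h and 5.46% at 72 h, and the Myf5 and Myf6 ratio by 64.5% and 68.5% of such 100 kb tiles. In added length, Myog had 18.4 kb more at 36 h than in proliferation, reached by 0.0279% of all 30 kb tiles with a peak, and 16.8 kb more at 72 h, reached by 0.0942%. Myod1 had 17.7 kb more at 36 h, reached by 0.195% of all 50 kb tiles with a peak, and 23.0 kb more at 72 h, reached by 0.0511%. At Myf5 and Myf6 the added length was 1.95 kb at 36 h and 2.30 kb at 72 h, reached by 27.9% and 30.8% of 100 kb tiles.

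**Figure D2:**
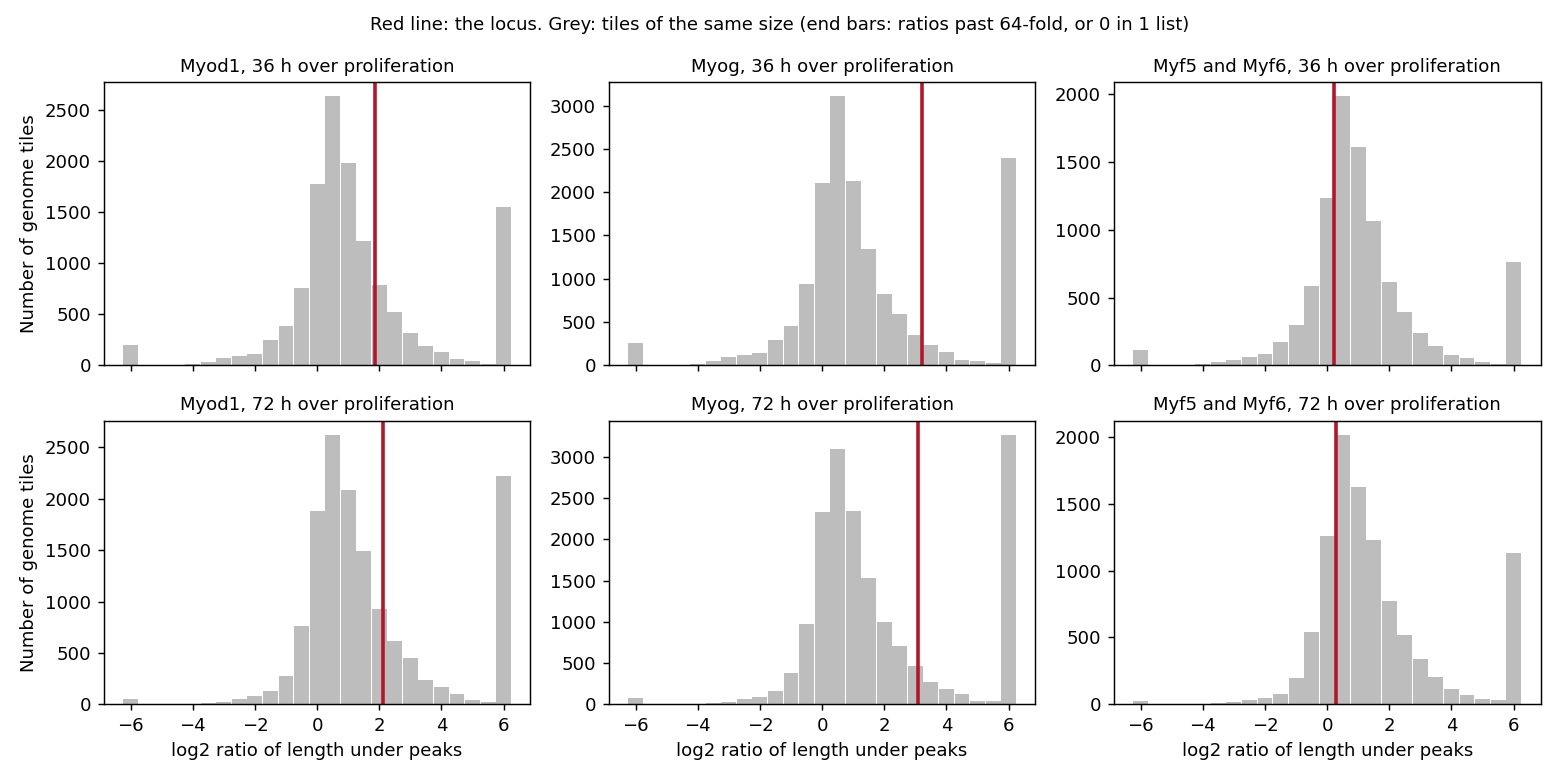
Histograms of the log2 ratio of length under peaks, 36 h (top) or 72 h (bottom) over proliferation, for genome tiles of the size of each window. The red line is the window, which lies right of the tile median in the Myod1 and Myog panels (at ratios of 3.60 to 9.21) and left of it in the Myf5 and Myf6 panels (1.18 and 1.21), and the bars at either end hold ratios past the axis or with 0 in 1 list.

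From 36 h to 72 h the windows moved by less. The length at 72 h was 1.21 times that at 36 h for Myod1, 0.925 times for Myog and 1.03 times for Myf5 and Myf6, and none of the 3 windows reached 2 times or fell to 0.5 times. Across tiles of 50, 30 and 100 kb the share that reached 2 times was 16.7%, 16.9% and 16.0%, and the share that fell to 0.5 times was 4.43%, 5.17% and 3.26%. Among tiles with at least 1 kb under peaks at 36 h the shares were 5.85%, 5.03% and 7.13% for 2 times, and 5.26%, 6.28% and 3.74% for 0.5 times. Summed over each whole list the ratio of 72 h over 36 h was 1.14. The Myod1 ratio was reached by 42.5% of 50 kb tiles and the Myog ratio by 71.3% of 30 kb tiles. Past a −log10 q of 5 the ratios were 1.07 at Myod1 and 0.868 at Myog. Myod1 thus had its longest extent at 72 h and Myog at 36 h in these libraries, by margins common in the genome.

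Peak number at Myod1 depended more on the settings than length did. The ratio of peak numbers over proliferation was 1.62 at 36 h and 2.08 at 72 h for Myod1, 2.17 and 2.67 for Myog, and 1.42 at both stages for Myf5 and Myf6. With each list reduced to its strongest peaks, equal in number, the Myod1 ratio at 72 h was 1 and the Myf5 and Myf6 ratio at 36 h turned to 0.833, whereas the length ratios at Myod1 were 3.38 for 36 h and 3.65 for 72 h. With the windows extended by 10 kb the Myod1 peak number at 36 h was 1.05 times, and the Myog peak number 3.50 times, the proliferation number. Between the later stages the Myod1 peak number at 72 h was 1.29 times that at 36 h, and 0.765 times among peaks past the stricter q.

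Most bases under peaks in proliferation remained under peaks later. At Myod1, 91.9% of the proliferation bases were under peaks at 36 h and 93.6% at 72 h. At Myog the shares were 92.5% and 100%, and at Myf5 and Myf6 86.0% and 80.7%. In the other direction, proliferation peaks held 25.5% of the 36 h bases and 21.4% of the 72 h bases at Myod1, 10.05% and 11.7% at Myog, and 73.0% and 66.7% at Myf5 and Myf6. Bases held by both later lists but not by the proliferation list made up 54.9% of the union at Myod1 (17.2 kb of 31.3 kb) and 74.8% at Myog (16.1 kb of 21.5 kb), compared with 15.0% at Myf5 and Myf6 (2.45 kb of 16.4 kb). There, bases held at all 3 stages were the largest class, with 48.2%. Bases of proliferation only were few in each window, at 1.36% of the union for Myod1, none for Myog and 3.61% for Myf5 and Myf6. These shares have no genome-wide value beside them. The whole lists at 36 h and 72 h were 1.79 and 2.03 times as long as the proliferation list. How far the shares are particular to these windows was not tested.

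**Figure D3:**
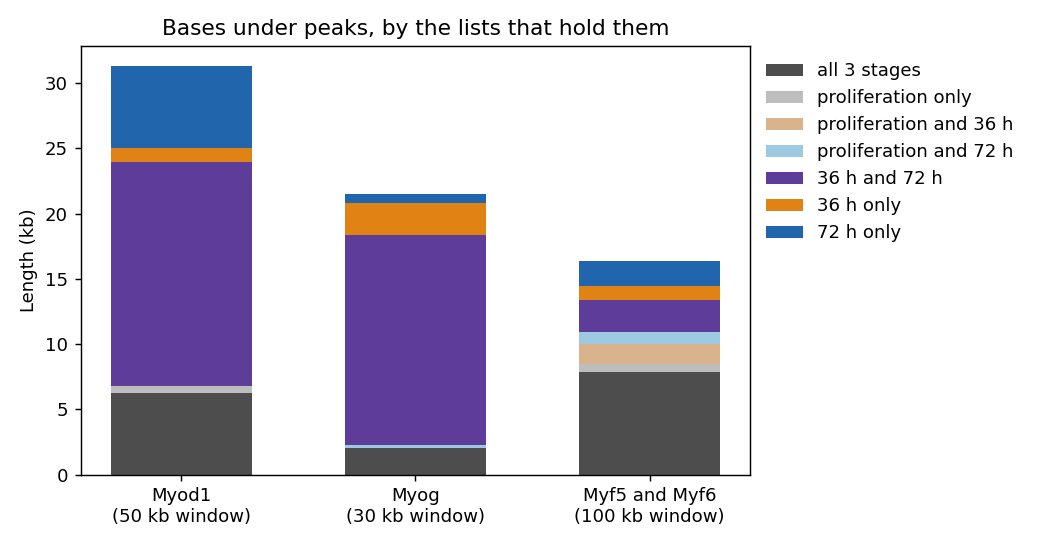
Length in kb of the bases under peaks in each window, stacked by the lists that hold them. The class of 36 h and 72 h is the largest at Myod1 (17.2 kb) and Myog (16.1 kb), and the class of all 3 stages is the largest at Myf5 and Myf6 (7.89 kb).

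Counted as regions, with any shared base merging peaks, regions called at both later stages but not in proliferation are named gained. Such regions were 10 of 25 at Myod1 (40.0%, exact 95% binomial interval 21.1 to 61.3%), 7 of 11 at Myog (63.6%, 30.8 to 89.1%) and 4 of 16 at Myf5 and Myf6 (25%, 7.27 to 52.4%). Genome-wide 22.3% of regions were gained, a share that lies within the intervals of Myod1 and of Myf5 and Myf6 and below that of Myog. The intervals cover counting error only, and neighbouring regions are not independent. The count depends on the merging rule: with peaks merged across gaps of up to 1 kb, gained regions numbered 0 at Myod1, 1 at Myog and 1 at Myf5 and Myf6. With lists equal in number they numbered 4 at Myod1, 5 at Myog and 2 at Myf5 and Myf6, and past the stricter q 5, 7 and 2. No genome-wide share under these 3 settings stands beside these counts, so they cannot be read against the 22.3%. Regions of all 3 stages numbered 6 at Myod1, 3 at Myog and 7 at Myf5 and Myf6, against 25.6% genome-wide. The Myod1 number includes the region on the left edge, whose proliferation peak lay outside the window. Regions of 72 h only numbered 8 at Myod1, none at Myog and 2 at Myf5 and Myf6, against 23.9% genome-wide. A single region, at Myod1, was held in proliferation only (6.7% of all regions). Regions of 36 h only numbered none at Myod1, 1 at Myog and 2 at Myf5 and Myf6 (15.9% of all regions), and the last region, at Myf5 and Myf6, was held in proliferation and at 36 h (1.7% of all regions). No region in the windows was held in proliferation and at 72 h without 36 h (3.95% of all regions).

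Signal strength was compared by the number of sequenced fragments at the peak summit, recovered from the deposited fold and p-value and divided by the relative ChIP depth of the library (1 in proliferation, 1.20 at 36 h and 1.10 at 72 h). The deposited fold, the ratio of ChIP to local background at the summit, is the authors' and was used within 1 list. The exception is a Myf5 and Myf6 region whose folds are set beside its fragments and local background. Intervals beside fragments are exact 95% Poisson intervals on the same scale and cover counting error. Within a region held by several lists, the peak with the most fragments stands for the list.

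**Figure D4:**
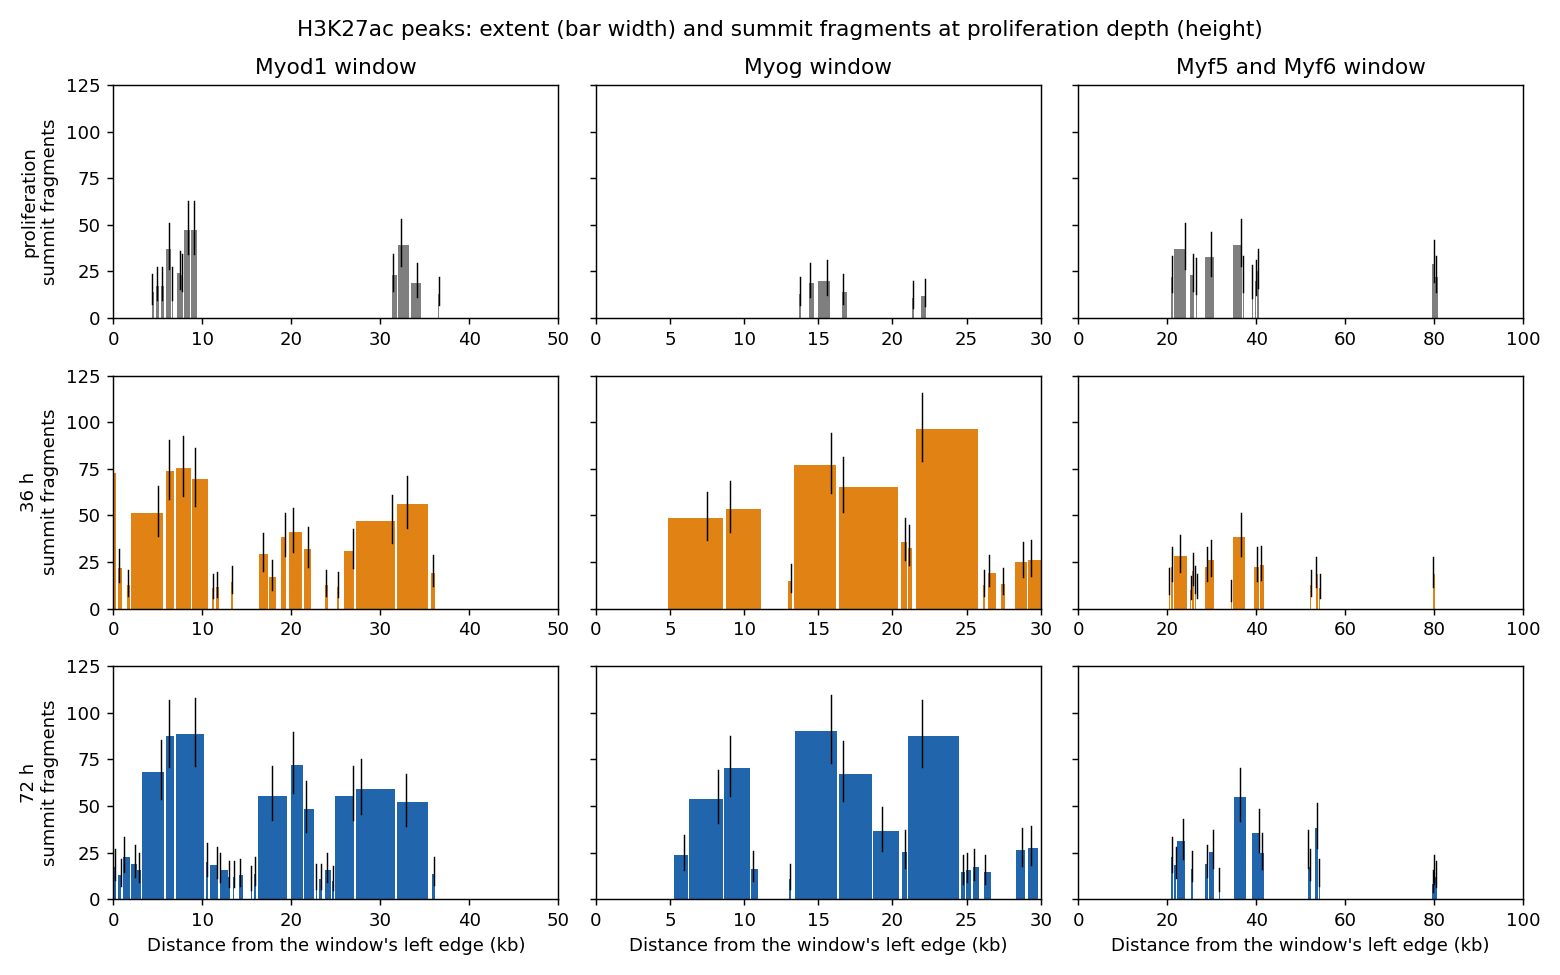
Peaks in the 3 windows (columns) at the 3 stages (rows), with distance from the left edge of the window in kb on the horizontal axis, called extent as bar width, and summit fragments at proliferation depth as bar height with exact 95% Poisson intervals at the summit. The highest bars reach 75.3 at 36 h and 88.4 at 72 h at Myod1, above 47 in proliferation, and 96.2 and 90.2 at Myog, above 20 in proliferation, while at Myf5 and Myf6 the highest are 39 in proliferation, 38.5 at 36 h and 54.7 at 72 h.

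Myod1 is the factor that can turn fibroblasts into muscle cells when expressed in them. In proliferation its window held a pair of peak clusters, whose strongest summits lay 24.0 kb apart. The left cluster began at 53604312, and its peak of highest fold, 53607997 to 53608626, had a fold of 10.9 and 47 fragments. The right cluster held the highest fold of the window in proliferation, 13.5 at the peak from 53631947 to 53633234, above 94.8% of the proliferation list. That peak was also the widest of the window at that stage, with 1288 bp.

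The left Myod1 cluster was stronger at the later stages. Its region from 53607041 to 53610618 had 47.0 fragments in proliferation (34.5 to 62.5), 75.3 at 36 h (60.5 to 92.5) and 88.4 at 72 h (71.6 to 107.8). The neighbouring region from 53605881 to 53606877 had 37.0 (26.1 to 51.0), 73.6 (59.0 to 90.7) and 87.4 (70.8 to 106.8) fragments in the same order of stages. The intervals of the neighbouring region did not overlap between proliferation and either later stage, those of the other region overlapped at 36 h and not at 72 h, and those of 36 h and 72 h overlapped in both. The region to their left, from 53601991 to 53605727, had 17.0 fragments in proliferation (9.90 to 27.2), 51.0 at 36 h (39.0 to 65.5) and 68.3 at 72 h (53.7 to 85.6), and its proliferation interval lay below both others. The highest folds of the window at the later stages lay here, with 28.3 at 36 h (above 99% of that list) and 31.1 at 72 h (above 99.5%).

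Between the clusters, a stretch of 21.9 kb from 53609442 to 53631350 held no proliferation peak, the longest such stretch between peaks of the window. At 36 h, 12.4 kb of it (56.4%) lay under 13 peaks, and at 72 h 17.35 kb (79.2%) lay under 18 peaks. The gained region from 53619776 to 53621315 was the strongest there, with 41.0 fragments at 36 h (30.3 to 54.2) and 72.0 at 72 h (57.0 to 89.7), on intervals that did not overlap. Its 72 h peak had a fold of 25.4, above 98.3% of the list, and its summits at 36 h and 72 h were at 53620169 and 53620171. The widest gained region, from 53616240 to 53619510, had 38.5 fragments at 36 h (28.2 to 51.3) and 55.6 at 72 h (42.5 to 71.4).

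Other gained regions of this stretch varied in strength. The region from 53621428 to 53622535 had 31.8 fragments at 36 h and 48.3 at 72 h, and that from 53624877 to 53627095 had 31.0 and 55.6. Their folds lay above 85.5% and 84.7% of the 36 h list, and both above 88.6% of the 72 h list. The region from 53610893 to 53611928 had 11.7 fragments at 36 h and 18.2 at 72 h. All 8 regions of 72 h only in the window also lay in this stretch, with widths of 147 to 910 bp.

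The right Myod1 cluster was wider at the later stages. The region from 53631859 to 53635345 had 39.0 fragments in proliferation (27.7 to 53.3), 56.0 at 36 h (43.4 to 71.2) and 51.9 at 72 h (39.3 to 67.3), on intervals that all overlapped. Of its length, 2.37 kb lay under proliferation peaks, 3.49 kb under 36 h peaks and 3.44 kb under 72 h peaks. To its left, the region from 53627248 to 53631837 held the widest peaks of the window, 4416 bp at 36 h and 4397 bp at 72 h, compared with a peak of 487 bp in proliferation. Its fragments were 23 in proliferation (14.6 to 34.5), 46.8 at 36 h (35.4 to 60.8) and 59.2 at 72 h (45.7 to 75.5). The proliferation interval lay below both others. The summits lay at 53631460 in proliferation, 53631354 at 36 h and 53627831 at 72 h. The 72 h value thus belongs to another site of the region, in the stretch without a proliferation peak. The region of proliferation only, from 53636450 to 53636619, had 13 fragments and a fold of 4.85, the fold above 36.2% of that list. The last 10 kb of the window held no peak at any stage.

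Myog encodes myogenin, needed for myoblasts to form differentiated fibres. In proliferation all 6 peaks of its window were weak, with folds of 4.18 to 6.64 and 11 to 20 fragments, and 2 of them exceeded the median fold of the list, 5.52. At 36 h, 11 of 13 peaks exceeded the list median of 5.71, and at 72 h 12 of 16 exceeded the list median of 5.70. Peaks wider than 2 kb numbered none in proliferation, 5 of 13 at 36 h and 4 of 16 at 72 h, against 4.53% of all peaks at 36 h and 5.25% at 72 h.

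The strongest site of the Myog window at 36 h was called in proliferation as well, at low level. The region from 136186033 to 136190829 had 12 fragments in proliferation (6.20 to 21.0), 96.2 at 36 h (79.4 to 115.5) and 87.4 at 72 h (70.8 to 106.8). Its 36 h peak from 136186578 to 136190752 had a fold of 36.1, above 99.8% of that list, and was the widest of the window with 4175 bp. The 72 h peak from 136186033 to 136189497 had a fold of 30.7, above 99.4% of its list. The summits at 36 h and 72 h lay at 136187010 and 136186995, and the proliferation summit at 136187171.

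The other regions of all 3 stages at Myog differed in the same way. The region from 136178338 to 136181261 had 20.0 fragments in proliferation (12.2 to 30.9), 77.0 at 36 h (62.0 to 94.4) and 90.2 at 72 h (73.3 to 109.8). The region from 136181379 to 136185437 had 14.0 (7.65 to 23.5), 65.2 (51.6 to 81.4) and 67.4 (52.9 to 84.6) in the same order. In all 3 regions the intervals of proliferation lay apart from those of 36 h and 72 h, with ratios of 3.85 to 8.02 at 36 h and 4.51 to 7.29 at 72 h, and the intervals of 36 h and 72 h overlapped. These counts and ratios were not set against the shared regions of the whole genome.

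The left side of the Myog window gained peaks where proliferation had none. The gained region from 136169843 to 136173591 had 48.5 fragments at 36 h (36.8 to 62.7) and 53.7 at 72 h (40.9 to 69.3). The adjoining gained region from 136173638 to 136176141 had 53.5 at 36 h (41.2 to 68.4) and 70.1 at 72 h (55.4 to 87.7), and its 72 h peak had a fold of 23.7, above 97.7% of the list. On the right side, the gained regions from 136194115 to 136195497, 136193276 to 136194047 and 136191077 to 136191983 were weaker, with 25.9, 25.1 and 19.2 fragments at 36 h and 27.3, 26.4 and 14.6 at 72 h. Across the 10 regions shared by the later lists, the 72 h fragments were 0.709 to 1.31 times those of 36 h, and no pair of intervals lay apart. No genome-wide value stands beside this count either.

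Myf5, the earliest of the 4 factors in the embryo, and Myf6 (also called MRF4) shared a window in which 8 of 16 regions had a proliferation peak. Its strongest region at each stage ran from 106934765 to 106937813, with 39.0 fragments in proliferation (27.7 to 53.3), 38.5 at 36 h (28.2 to 51.3) and 54.7 at 72 h (41.7 to 70.3). The folds of its peaks, 11.1, 14.2 and 18.3, lay above 89.8%, 89.5% and 94.5% of their own lists. The region from 106928453 to 106930629 had 33.0 fragments in proliferation (22.7 to 46.3), 25.9 at 36 h (17.6 to 36.8) and 25.5 at 72 h (16.9 to 36.9). Neither region had intervals that lay apart.

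In the region from 106921559 to 106924504 the fold and the fragments gave different pictures. It held the widest peaks of the window in proliferation (2561 bp) and at 36 h (2946 bp). Its fragments were 37.0 in proliferation (26.1 to 51.0), 28.4 at 36 h (19.7 to 39.7) and 31.0 at 72 h (21.4 to 43.3). The folds were 5.37, 8.24 and 10.6, and the local background at the summit was 3.78, 1.60 and 1.10 times the genome background of the library. Peaks wider than 2 kb numbered 3 of 12 in the window in proliferation, 2 of 17 at 36 h and 1 of 17 at 72 h, against 2.61%, 4.53% and 5.25% of all peaks. At Myod1 they numbered none of 13, 4 of 21 and 6 of 27.

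The longest stretch without a proliferation peak, 39.0 kb from 106940583 to 106979580, met 5 peaks at 36 h and 7 peaks at 72 h. They held 4.32% of it at 36 h and 7.14% at 72 h. The gained region from 106953317 to 106953911 had 18.4 fragments at 36 h (11.5 to 27.9) and 38.3 at 72 h (27.6 to 51.7), on intervals that overlapped slightly, with a 72 h fold of 13.7. The gained region from 106940889 to 106941867 had 23.4 fragments at 36 h and 24.6 at 72 h. The gained regions from 106951949 to 106952351 and from 106954076 to 106954393 had 12.5 and 10.9 fragments at 36 h and 17.3 and 12.8 at 72 h.

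The regions from 106920874 to 106921426, 106925142 to 106926010 and 106939035 to 106940813 had 22, 23 and 25 fragments in proliferation, 22.6, 20.1 and 22.6 at 36 h, and 22.8, 16.4 and 35.5 at 72 h. The region held in proliferation and at 36 h, from 106926166 to 106926809, had 21 and 14.2 fragments. Of the regions of 72 h only, that from 106951583 to 106951832 had 25.5 fragments (17.0 to 36.9) and a fold of 9.31, above 76.4% of the list, and that from 106931574 to 106931795 had 9.11 fragments.

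The rightmost Myf5 and Myf6 region, from 106979533 to 106980771, had its highest value in proliferation, with 29.0 fragments (19.4 to 41.6), against 18.4 at 36 h (11.5 to 27.9) and 14.6 at 72 h (8.33 to 23.7). These intervals overlapped. Of 20 consecutive 5 kb bins of the window, 12 held no peak at any stage.

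At Myod1 the region on the left edge of the window was set aside, since its proliferation peak lay outside. Across the other regions held by the lists compared, fragments at 36 h exceeded those of proliferation in 5 of 5 regions at Myod1, 3 of 3 at Myog and 1 of 8 at Myf5 and Myf6. At 72 h they did so in 5 of 5, 3 of 3 and 3 of 7. The Myod1 summits compared at 72 h lay up to 3629 bp from those of proliferation (median 617 bp). A ratio can therefore set different sites of a region side by side. The median ratio over proliferation was 1.99 at 36 h and 2.36 at 72 h for Myod1, 4.66 and 4.81 for Myog, and 0.829 and 0.837 for Myf5 and Myf6. Poisson intervals lay apart in 3 of 5 regions at 36 h and 4 of 5 at 72 h for Myod1, in 3 of 3 at both stages for Myog, and in none for Myf5 and Myf6. A wider peak offers more positions for a high summit, and the part of this in the ratios was not tested. The counts and ratios were not set against the shared regions of the whole genome. A difference of these loci therefore cannot be told apart from one between the whole libraries.

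**Figure D5:**
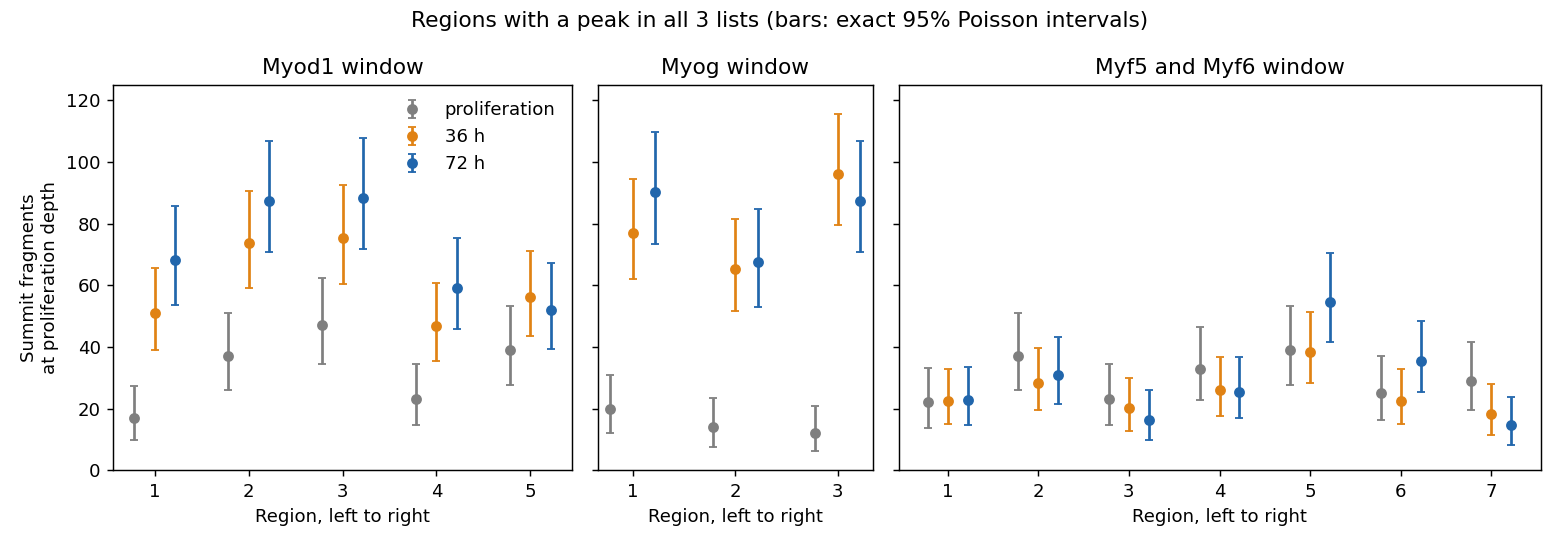
Summit fragments at proliferation depth (points) with exact 95% Poisson intervals (bars) in the regions with a peak of each list in the window, ordered left to right along the chromosome. At Myog the 36 h and 72 h points lie between 65.2 and 96.2 and the proliferation points between 12 and 20, whereas at Myf5 and Myf6 the intervals of the stages overlap.

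The fragments needed for a call were set beside the regions without a proliferation peak. A call in proliferation needed 9 fragments at the genome background and 12 at the median local background of the proliferation peaks. In fragments of their own libraries, the later lists needed 9 at 36 h and 8 at 72 h at the genome background. At the median local background of their peaks they needed 9 and 10. Of the regions with a 36 h peak and none in proliferation, the lower bound of the 36 h fragments reached 12 in 6 of 10 at Myod1, 6 of 8 at Myog and 1 of 6 at Myf5 and Myf6. For a 72 h peak the lower bound reached 12 in 5 of 18, 5 of 7 and 3 of 6, and it reached 9 in 8 of 18, 5 of 7 and 4 of 6. Where the lower bound of a later stage lay under these limits, counting error at that stage includes a level too low for a call in proliferation. The median local background of the peaks in the windows, relative to the genome background, was 1.45 in proliferation, 1 at 36 h and 1.02 at 72 h for Myod1, 1.09, 1.29 and 1.10 for Myog, and 1.45, 1.06 and 1.10 for Myf5 and Myf6. The medians of the whole lists were 1.93, 1.06 and 1.15. Raising the later backgrounds to the proliferation median of the whole list, at proliferation depth, with the extents and the p limit of each list as deposited, left the length at Myog unchanged at both later stages and that at Myod1 at 4.33-fold at 72 h. This setting was chosen after the data had been seen. It removed no peak at Myog, so it does not bear on the stability of the length there.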

How the data were processed

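H3K27ac ChIP-seq peak lists of 3 C2C12 libraries, 1 per stage, were analysed. Per the labels' protocols, DNA of 4 ChIP assays was pooled per library. The submitters' processing notes name BWA, MACS2, deepTools and the build mm9, with no version or setting. The deposited lists give a position, a fold (ratio of ChIP to background), a −log10 p and −log10 q, a score, which was not used, and a summit offset per peak.

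Summit fragments and local background were solved from the deposited fold and −log10 p with the MACS2 formulas, taking whole fragments times 1 scale per library (0.673, 0.698 and 0.657 for proliferation, 36 h and 72 h). All but 1 of 57101 proliferation peaks and all later peaks were solved to a relative error under 0.0003. Simulated peaks, 5000 per list, were built with the same formulas and scale from the solved values. They gave back their fragment number in 100% of cases. This checks the arithmetic of the solution only, and cannot show whether the scale or the formulas are right. Read totals are unknown here, and relative depth was taken from background and scale.

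Peaks overlapping a window by at least 1 bp were counted, lengths were clipped to the window, and positions count from 1. The genome was tiled in windows of 50, 30 and 100 kb. Regions named are those with the 3 highest folds or the widest peak of a list in each window, and the 5 longest gained or lost. Other regions named were chosen after their values were seen. The windows, members and settings were chosen with earlier results of these data known. No annotation of mm9 was used, so pathway genes, cell type markers and genes of like pattern were not analysed here. No test was made. Python 3.11.15, pandas 2.3.3, NumPy 2.4.6, SciPy 1.17.1 and matplotlib 3.10.9 were used.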

Additional observations from a re-analysis of the deposited data

How the results depend on the processing

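No paired analysis was possible because each stage had 1 library. The length under peaks at Myod1 and Myog stayed at least 2 times that of proliferation at 36 h and 72 h with a stricter q, equal list sizes and windows extended by 10 kb. Scaling to the depth of proliferation, with the extents and p limit of each list as deposited, removed no peak in the windows, so it does not bear on the stability of the lengths. Raised background (chosen after the data had been seen) kept the same extents and p limits. It removed no peak at Myog, nor at Myod1 at 36 h, and left 25 of 27 peaks at Myod1 at 72 h. It therefore bears little on the stability of the lengths. A peak at 36 h and another at 72 h at Myf5 and Myf6, with 8.37 and 8.20 fragments at that depth, lay under the 9 needed for a call in proliferation. With a −log10 q of at least 5, gained regions numbered 5 at Myod1 and 2 at Myf5 and Myf6, and lost regions 0 and 1. With lists equal in number, gained regions numbered 4 at Myod1 and 2 at Myf5 and Myf6, lost regions at Myf5 and Myf6 numbered 2, and the peak number ratio of 72 h over proliferation at Myod1 was 1. With windows extended by 10 kb, Myod1 had 2 lost and Myog 11 gained regions. Merging across gaps of up to 1 kb left 0 gained and 0 lost regions at Myod1, 1 gained at Myog and 1 gained at Myf5 and Myf6, as neighbouring regions joined each other or regions with a proliferation peak. The region counts under the stricter q, equal lists and wider merging have no genome-wide share beside them. Restricting tiles to those with at least 1 kb in proliferation, chosen after the data had been seen, lowered the share past 2 times to 24.1% and 28.1% of 50 kb tiles and to 20.0% and 22.9% of 30 kb tiles, at 36 h and 72 h. A minimum overlap of 50% of a region changed no count of gained or lost regions by over 1.5 times. The 1.5-fold threshold changed no share of tiles higher than in proliferation by over 1.5 times. It did more for 72 h over 36 h. Among 50 kb tiles the higher share went from 16.7% to 27.4% and the lower share from 4.43% to 8.86%.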
